A study of Mus musculus with 6 samples.

Results

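The genes described here are 39 mouse genes that build the contacts, the keratin skeleton and the polarity of epithelial cells. They were chosen as a list, by symbol: every probe set whose platform annotation names 1 gene, with that gene on the list, was taken, which gave 84 of the 45037 probe sets in the deposited table. All 39 genes had at least 1 probe set, and 73 of the 84 probe sets passed the filter on dim signals. Gene expression was measured on 6 Affymetrix arrays of mouse embryonic stem cells (mESCs), 3 of Setd2 knockout cells and 3 of wild type cells, called biological repeats in the labels. Both genotypes have the strain label 129SV/C57BL/6, were grown on feeder cells and untreated, and were freed of feeders as far as possible by settling and 1 passage on gelatin. The labels give neither the deleted part of Setd2 nor the number of clones behind the arrays, so p-values measure the spread between these arrays, which may be technical. Values are log2 MAS5 signals, where MAS5 is the Affymetrix algorithm that summarises a probe set as 1 value, and a difference of 1 is a 2-fold change.

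Epithelial cells hold to each other through 3 kinds of contact. Tight junctions, built of claudins, occludin and MARVEL proteins on a scaffold of zonula occludens proteins and cingulin, seal the gap between cells. Adherens junctions join cadherins through catenins to actin, and desmosomes join desmosomal cadherins through plakoglobin, plakophilins and desmoplakin to keratin filaments. The Par and Crumbs complexes and Lgl proteins set the apical and basolateral sides. mESCs are known to use E-cadherin and to have Epcam and keratins of simple epithelia. Setd2 is the enzyme that trimethylates lysine 36 of histone H3 in transcribed genes.

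The Setd2 probe set read 9.37, 9.50 and 9.60 on the knockout arrays and 10.31, 10.30 and 10.31 on the wild type arrays, a signal 1.76-fold lower in knockout cells (limma adjusted p = 0.0272). Whether it lies in the deleted part is not known here. Markers of pluripotent stem cells averaged between 12.01 and 12.11 on the knockout arrays and between 12.17 and 12.30 on the wild type arrays, without overlap. All 17 were tested, and their differences ran from -1.99 to 0.80, with a median of -0.02. The lowest of them, -1.99, equals the lowest difference among the tested genes of chromosome 8. In limma 1 of the 17 markers was lower and 0 higher (0.48% and 0.256% of all genes). With the replicate block described below, 3 were lower and 1 higher (5.75% and 4.13%). The lines also differed in ways that the Setd2 label does not cover: 3 of 4 tested genes of chromosome Y were higher in knockout cells, and the 709 tested genes of chromosome 8 had a median difference of -0.34. A difference in a junction gene and a difference between the cell lines cannot be told apart. Arrays numbered 1 stood apart from those numbered 2 and 3 in both genotypes, along the first principal component (38.0% of the variance).

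For each gene the brightest tested probe set, by its mean over all arrays, stood for the gene. In the fit without a block, 0 of the 39 genes passed limma's threshold of 0.05 on the adjusted p in either direction, against 0.736% of the 12915 genes tested (0.256% higher and 0.48% lower in knockout cells). An unadjusted p under 0.05 was reached by 9 of the 39 genes, against 13.4% of all genes. Of these, 8 were higher in knockout cells (6.16% of all genes) and 1 was lower (7.29%). With the replicate number as a block, knockout and wild type arrays of the same number are compared, although the labels do not name them as pairs. In that fit 9 of the 39 genes were higher and 1 was lower, against 4.13% and 5.75% of all genes. In either direction these were 10 of the 39 genes, against 9.87% of all genes. The 9 were Cldn6, Cxadr, F11r, Krt18, Krt19, Crb3, Epcam, Spint2 and St14. The 1 was Pard3, which lies on chromosome 8, where 270 of the 709 tested genes were lower in the same fit. A fit on the 4 arrays numbered 2 and 3 was added once the data had been looked at. It had 7 of the 39 genes higher and 1 lower (3.76% and 5.55% of all genes, 9.31% in either direction). All 8 were among the 10 called with the block, and the 2 lost were Krt18 and Krt19. The fit with the block uses the same 4 arrays, so this overlap is not an independent check. Every knockout array exceeded every wild type array in 7 of the 39 genes (9.26% of all genes) and lay below every one in 1 (9.97%, or 19.2% in either direction). All 3 differences between arrays of the same number were above 0 in 19 of the 39 genes (23.3% of all genes) and below 0 in 6 (23.6%). In 28 of the 39 genes the difference was above 0, or 71.8% against 49.9% of all genes, and the median difference was 0.14, with all genes at -0.00. The median of the 39 was 0.070, 0.23 and 0.22 without knockout array 1, 2 or 3, and 0.28 without wild type array 1. In bulk RNA, fewer cells of a type and less RNA per cell cannot be told apart.

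**Figure D1:**
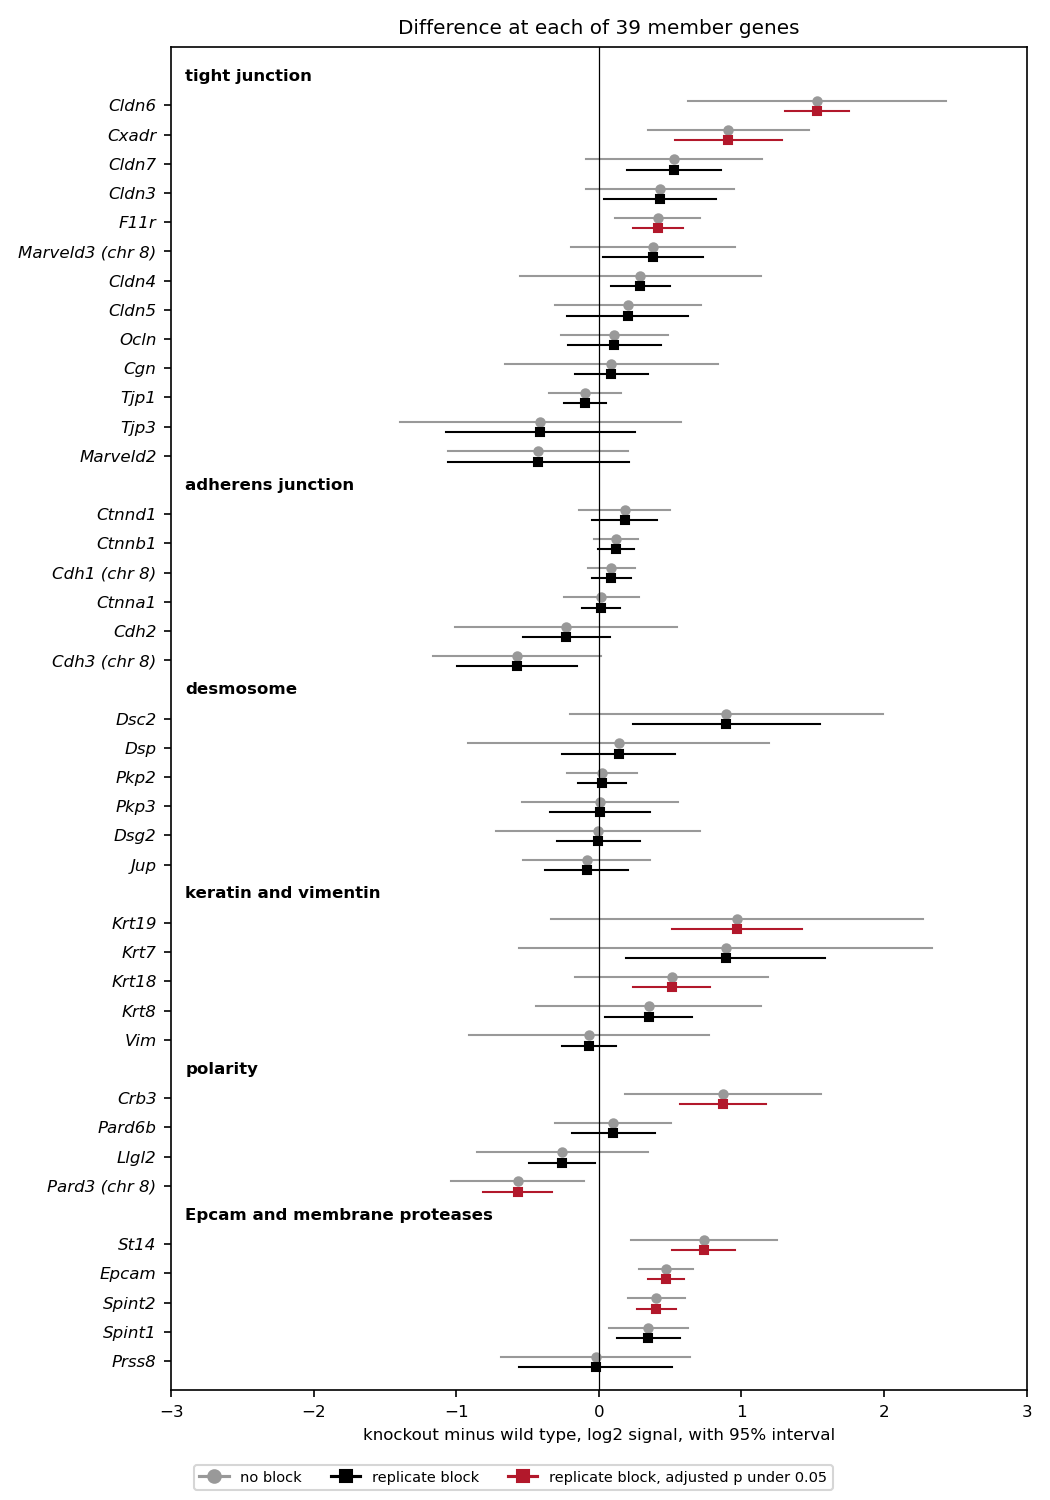
Difference between knockout and wild type cells (log2 signal, horizontal axis) at each of the 39 genes, by group, with its 95% interval from the fit without a block (grey circles) and with the replicate block (squares, red where the adjusted p was under 0.05). Cldn6, at 1.53, lies farthest to the right, and Pard3 is the 1 red square left of 0.

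The tight junction genes held the largest single difference among the 39. Of 13 members, 3 were higher with the replicate block and none was lower (4.13% and 5.75% of all genes). In 10 of 13 the difference lay above 0 (49.9% of all genes), and the group median was 0.29. That median was 0.096 without knockout array 1, 0.47 without knockout array 2 and 0.49 without wild type array 1. Cldn6, a claudin of embryonic epithelia, read 11.40, 10.23 and 10.10 on the knockout arrays and 9.76, 8.62 and 8.77 on the wild type arrays. All knockout values lay above all wild type values, and in both genotypes array 1 was the highest. The mean was 10.58 ± 0.72 in knockout and 9.05 ± 0.62 in wild type cells (SD, n = 3 each), a signal 2.88-fold higher. The difference of 1.53 ± 0.40 (SE) missed the threshold without the block (limma adjusted p = 0.165) and passed with it, at an SE of 0.10 (adjusted p = 1.93e-05) and without both arrays numbered 1 (0.000143). Within numbers 1, 2 and 3 the knockout exceeded the wild type by 1.64, 1.61 and 1.33.

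Cxadr, the coxsackievirus and adenovirus receptor, an adhesion protein found at tight junctions, read 9.31, 8.94 and 8.39 in knockout and 8.18, 7.73 and 8.01 in wild type cells. The arrays did not overlap by genotype, and the signal was 1.88-fold higher in knockout cells (limma adjusted p = 0.186; 0.00928 with the replicate block). A second tested Cxadr probe set differed by 0.74 and missed the threshold with the block (adjusted p = 0.0870). F11r, which encodes junctional adhesion molecule A, read 11.07, 10.76 and 10.81 in knockout and 10.62, 10.38 and 10.41 in wild type cells. It was 1.33-fold higher, again with no overlap (limma adjusted p = 0.254; 0.0105 with the replicate block). Its second probe set, with signals between 4.27 and 5.93 on all arrays, near or below the filter value of 5.27, differed by 0.17.

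The other claudins on the list lay above 0 without passing in either fit. Cldn7 read 10.06, 8.93 and 9.33 in knockout and 9.11, 8.81 and 8.81 in wild type cells, a difference of 0.53 (95% interval -0.09 to 1.14; limma adjusted p = 0.0572 with the replicate block). Cldn4 differed by 0.29 (-0.56 to 1.14), Cldn3 by 0.43 (-0.09 to 0.95) and Cldn5, best known from endothelium, by 0.20 (-0.31 to 0.71). These intervals are from the fit without a block. With the block they lay above 0 for Cldn7 (0.20 to 0.85), Cldn4 (0.085 to 0.50) and Cldn3 (0.037 to 0.82), and not for Cldn5 (-0.22 to 0.63). All 4 tested probe sets of Cldn3 were on the same side, between 0.34 and 0.75. The intervals of these claudins leave room for differences of the size of that of F11r. Claudins tested outside the list went both ways. Cldn9 differed by -0.30, and Cldn10, Cldn12 and Cldn15 differed by 0.82, 0.13 and 1.02, none of which passed in either fit. Cldn10 and Cldn15 reached below the filter value of 5.27: Cldn10 read 5.36, 5.02 and 4.99 on the wild type arrays, and Cldn15 read 4.44 on wild type array 2.

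None of the strand proteins and scaffolds passed in either fit. Tjp1, the scaffold zonula occludens 1, read 12.06, 11.87 and 11.74 in knockout and 12.12, 11.95 and 11.90 in wild type cells, a difference of -0.10 (95% interval -0.35 to 0.15). Occludin (Ocln) differed by 0.11 (-0.27 to 0.48), with its second probe set at -0.20, and cingulin (Cgn) by 0.09 (-0.66 to 0.83). Tjp3 differed by -0.41 (-1.39 to 0.57): its 3 knockout arrays, at 7.87, 6.42 and 6.03, spread on both sides of the wild type arrays at 7.29, 7.08 and 7.18. The tricellular protein gene Marveld2 differed by -0.43 (-1.06 to 0.21) and Marveld3 by 0.38 (-0.20 to 0.95, or 0.029 to 0.73 with the block). Marveld3 lies on chromosome 8, where the median gene was at -0.34.

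Of the 5 genes of Epcam and the membrane proteases, 3 were higher with the replicate block and none was lower (4.13% and 5.75% of all genes). Their median difference was 0.40. In 4 of the 5 the genotypes did not overlap, the knockout arrays being the higher ones (9.26% of all genes). Epcam, an adhesion protein of epithelia and of pluripotent cells, read 13.06, 13.14 and 13.26 in knockout and 12.60, 12.70 and 12.76 in wild type cells. The signal was 1.39-fold higher, and its adjusted p in limma was 0.0564 without the block and 0.00108 with it. Without knockout replicate 1 Epcam passed in the fit without a block too (adjusted p = 0.0262), as it did after quantile normalization (0.0398) and with a floor of 5 (0.0492). With any other single array left out it did not pass, at adjusted p-values between 0.115 and 0.251 in limma. The second Epcam probe set differed by 0.45 (adjusted p = 0.133 with the replicate block).

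St14 encodes matriptase, a membrane serine protease known to cleave Epcam, and Spint1 and Spint2 encode the inhibitors that hold it in check. St14 read 10.50, 9.76 and 9.93 in knockout and 9.66, 9.17 and 9.16 in wild type cells, 1.66-fold higher with no overlap (limma adjusted p = 0.239; 0.00164 with the replicate block). Spint2 read 12.89, 12.75 and 12.75 in knockout and 12.49, 12.28 and 12.41 in wild type cells. It was 1.32-fold higher, and with the block both of its probe sets passed in limma (adjusted p = 0.00339 and 0.00147), which neither did without it (0.103 and 0.0749). Spint1 read 9.78, 9.76 and 9.89 in knockout and 9.55, 9.41 and 9.43 in wild type cells, a difference of 0.35 that missed the threshold in both fits (without the block limma's adjusted p was 0.307, with it 0.0607). Prss8, the membrane protease prostasin, differed by -0.02 (95% interval -0.69 to 0.64), and knockout exceeded wild type cells at number 1 but not at numbers 2 and 3.

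**Figure D2:**
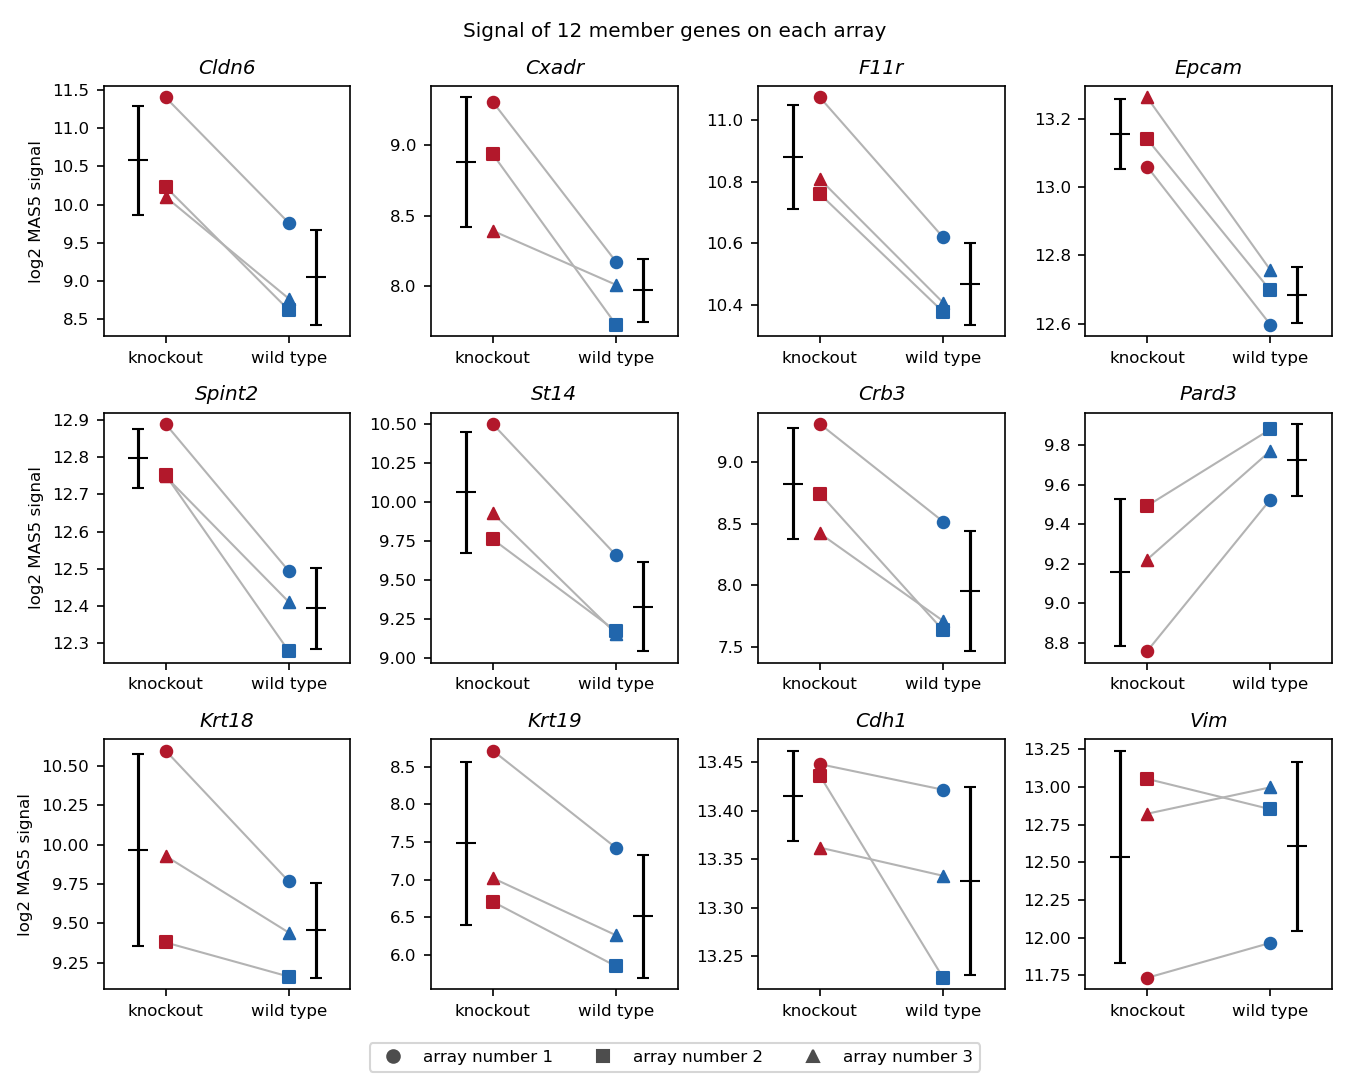
Log2 MAS5 signal (vertical axis, its range set for each gene) of 12 genes on the knockout arrays (red) and wild type arrays (blue). Markers give the array number, grey lines join arrays of the same number, and black bars give mean and SD of 3 arrays. For Cldn6 the 3 lines run nearly parallel, while array 1 lies above the others in both genotypes, and for Vim array 1 lies below.

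In the polarity group the median of the 4 genes was -0.08, which turned positive without knockout array 2 (0.048) or 3 (0.015), without wild type array 1 (0.035) and with genes of chromosomes 8 and Y left out (0.10). It was -0.22 without knockout array 1, and -0.13 and -0.14 without wild type array 2 or 3. In the same group, with the replicate block, 1 of the 4 genes was higher and 1 lower (4.13% and 5.75% of all genes). Crb3, the Crumbs protein of the apical membrane, read 9.31, 8.74 and 8.42 in knockout and 8.52, 7.63 and 7.71 in wild type cells. Only knockout array 3 lay below the highest wild type array, array 1, so the groups overlapped, while the knockout exceeded the wild type by 0.79, 1.11 and 0.71 within the 3 numbers. The signal was 1.83-fold higher (limma adjusted p = 0.299; 0.00372 with the replicate block). The other probe sets of Crb3 differed by 1.11 and 1.05 and both also passed with the block (limma, adjusted p = 0.00174 and 0.00228).

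Pard3, the scaffold of the Par complex, read 8.76, 9.49 and 9.22 in knockout and 9.53, 9.88 and 9.77 in wild type cells. The 3 knockout values were the lowest of the 6, and the difference was -0.57 ± 0.20 (SE; limma adjusted p = 0.322; 0.0108 with the replicate block). Its other tested probe sets differed by -0.59 and -0.74, of which the first passed with the block (limma adjusted p = 0.0455) and the second did not (0.0941). Pard3 lies on chromosome 8, whose 709 tested genes had a median of -0.34. Of these 709, 270 were lower and 0 higher with the block, and in 315 every knockout array lay below every wild type array. Whether Pard3 differed from the rest of that chromosome was not tested. Pard6b, another Par complex member, differed by 0.10 (95% interval -0.31 to 0.51), with its second probe set at 0.20. Llgl2, an Lgl protein of the basolateral side, read 9.83, 8.98 and 9.05 in knockout and 9.93, 9.30 and 9.40 in wild type cells. The difference was -0.26 (-0.86 to 0.34, or -0.49 to -0.024 with the block).

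Keratin 8 and keratin 18 pair to form the filaments of simple epithelia, with keratin 7 and keratin 19 as further members of the same families. In this group of 5 genes 2 were higher with the replicate block and none was lower (4.13% and 5.75% of all genes). The median was 0.51 (0.33 without knockout array 1 and 0.81 without knockout array 2). Krt19 read 8.71, 6.71 and 7.02 in knockout and 7.42, 5.85 and 6.26 in wild type cells. The groups overlapped, since wild type array 1 lay above knockout arrays 2 and 3, and the signal was 1.96-fold higher (limma adjusted p = 0.584; 0.0170 with the replicate block; 0.135 without both arrays numbered 1). Krt18 read 10.60, 9.38 and 9.93 in knockout and 9.77, 9.16 and 9.44 in wild type cells, 1.43-fold higher (limma adjusted p = 0.573; 0.0285 with the replicate block; 0.274 without both arrays numbered 1). Without both arrays numbered 1 the difference was 0.81 for Krt19 and 0.35 for Krt18.

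The probe sets of Krt8 differed in size of effect. The one with the highest signal read 10.40, 8.98 and 9.93 in knockout and 9.82, 9.09 and 9.36 in wild type cells. Its difference was 0.35 (95% interval -0.44 to 1.14). With the replicate block the interval was 0.042 to 0.65 and limma's adjusted p was 0.167. A second differed by 0.11, and the third by 1.05, which passed with the block (limma adjusted p = 0.00129). The second and the third carry the suffix that Affymetrix gives to probe sets which may also bind related transcripts, so the level of Krt8 is uncertain. The probe sets that stood for Spint2, Ctnna1 and Vim carry the same suffix. So do the second probe sets of Epcam and F11r and some of those of Cldn3. Krt7 differed by 0.89 (-0.56 to 2.34, or 0.19 to 1.59 with the block), and 2 of its wild type arrays, at 4.99 and 4.75, lay below the filter value. Vim encodes vimentin, the filament protein of mesenchymal cells. It read 11.73, 13.05 and 12.82 in knockout and 11.97, 12.85 and 13.00 in wild type cells, a difference of -0.07 (-0.91 to 0.77), or -0.07 ± 0.08 (SE) with the block.

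Of the 6 adherens junction genes 0 passed in either limma fit (0 at an unadjusted p under 0.05 without the block), and their median was 0.05. Cdh1 encodes E-cadherin, the cadherin of epithelia and mESCs. It read 13.45, 13.44 and 13.36 in knockout and 13.42, 13.23 and 13.33 in wild type cells, a difference of 0.09 (95% interval -0.08 to 0.26), so that a rise above 0.26 lies outside the interval. Cdh1 lies on chromosome 8. Ctnnb1, beta-catenin, read 14.16, 13.94 and 14.07 in knockout and 13.96, 13.91 and 13.94 in wild type cells, a difference of 0.12 (-0.04 to 0.28), with its other probe sets at 0.16 and 0.15. Ctnna1, alpha-catenin, read 13.64, 13.22 and 13.39 in knockout and 13.54, 13.31 and 13.34 in wild type cells, a difference of 0.018 (-0.25 to 0.28), with its other tested probe sets at -0.04 and 0.20. Ctnnd1, p120-catenin, differed by 0.18 (-0.14 to 0.50), with its other probe sets at 0.42 and -0.16.

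The other cadherins were on the lower side. Cdh2, N-cadherin, the cadherin of mesenchymal and neural cells, read 7.84, 8.88 and 8.57 in knockout and 8.01, 8.88 and 9.08 in wild type cells, a difference of -0.23 (95% interval -1.01 to 0.55). Its second probe set differed by -0.41. Cdh3, P-cadherin, also on chromosome 8, read 7.34, 6.89 and 6.46 in knockout and 7.70, 7.42 and 7.29 in wild type cells. The difference was -0.57 (-1.17 to 0.02; without the block limma's adjusted p was 0.443, with it 0.0994). The 4 members on chromosome 8, Cdh1, Cdh3, Marveld3 and Pard3, had a median of -0.24, against 0.18 for the 35 others.

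Desmosome genes had a median of 0.02, which turned negative without knockout array 1 (-0.16) or wild type array 2 (-0.060) and without both arrays numbered 1 (-0.034). It was 0.11, 0.15 and 0.17 without knockout array 2, knockout array 3 or wild type array 1. Of the 6 genes 0 passed in either limma fit (0 at an unadjusted p under 0.05 without the block). Pkp2, a plakophilin, read 11.51, 11.40 and 11.53 in knockout and 11.37, 11.36 and 11.63 in wild type cells, a difference of 0.02 (95% interval -0.22 to 0.27). Its other 3 tested probe sets differed by between 0.10 and 0.14. The desmosomal cadherin gene Dsg2 read 10.54, 9.47 and 9.33 in knockout and 10.13, 9.57 and 9.65 in wild type cells, a difference of -0.00 (-0.72 to 0.71). The other 4 tested probe sets of Dsg2 ran from -0.76 to 0.30, and none passed. Dsc2, its partner, differed by 0.89 (-0.20 to 1.99; limma adjusted p = 0.0983 with the replicate block) at signals between 5.31 and 7.68. Jup (plakoglobin) differed by -0.09 (-0.53 to 0.36), Pkp3 by 0.01 (-0.54 to 0.55) and Dsp, desmoplakin, by 0.14 (-0.92 to 1.20). The second probe set of Pkp3 differed by 0.60 and that of Dsp by 0.42 (95% interval with the block 0.019 to 0.82), and neither passed with the block. For Dsp and Dsc2 the intervals without the block are wide, and a change of 2-fold could be missed. With the block they ran from -0.26 to 0.53 for Dsp and from 0.24 to 1.55 for Dsc2.

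**Figure D3:**
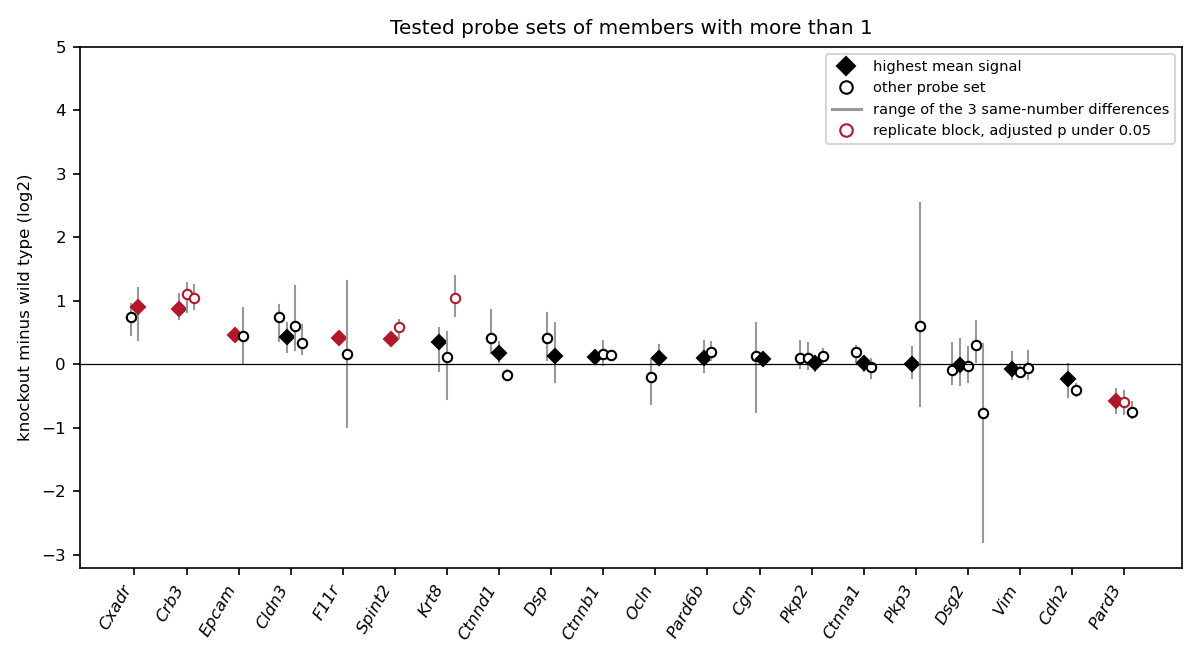
Difference between knockout and wild type cells (log2, vertical axis) at every tested probe set of the 20 genes with more than 1, genes ordered by the probe set with the highest mean signal (diamonds). Grey lines span the 3 differences between arrays of the same number, and red marks an adjusted p under 0.05 with the replicate block. All probe sets of Crb3 lie above 0.7 and those of Pard3 below -0.5, while those of Krt8 run from 0.11 to 1.05.

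Across the 20 genes with several tested probe sets, all probe sets of 16 differed in the same direction. Of the 73 tested probe sets, 13 were higher and 2 lower with the replicate block, against 3.49% and 4.39% of all 27022 (7.88% in either direction). Without the block 0 passed in limma (0.648% of all; 0.274% higher and 0.374% lower), with 14 higher and 3 lower at an unadjusted p under 0.05 (5.74% and 5.93% of all, 11.7% in either direction). On the arrays numbered 2 and 3 alone, 12 were higher and 1 lower (3.4% and 4.12% of all, 7.52% in either direction).

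Levels of these genes also followed the array number. In 14 of the 39 genes both arrays numbered 1 lay above the other 4, and in 2 below, against 23.6% and 16.9% of all genes. The mean over the 39 genes was 9.81 on knockout array 1, with 9.22 and 9.28 on the other knockout arrays, and 9.41 on wild type array 1, with 9.07 and 9.13 on the other wild type arrays. Krt19 was 1.85 higher on array 1 than on the others in knockout cells and 1.36 higher in wild type cells. Dsp was 1.57 and 0.80 higher in the same way, and Cldn6 1.23 and 1.06. Vim was lower on array 1, by -1.20 in knockout and -0.96 in wild type cells, as was Cdh2, by -0.88 and -0.97. Epcam moved little, by -0.14 and -0.13. Over the 39 genes the shift of array 1 in knockout cells correlated with that in wild type cells at r = 0.81, and at r = 0.59 over all genes, both across genes, which share the same 6 arrays.

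**Figure D4:**
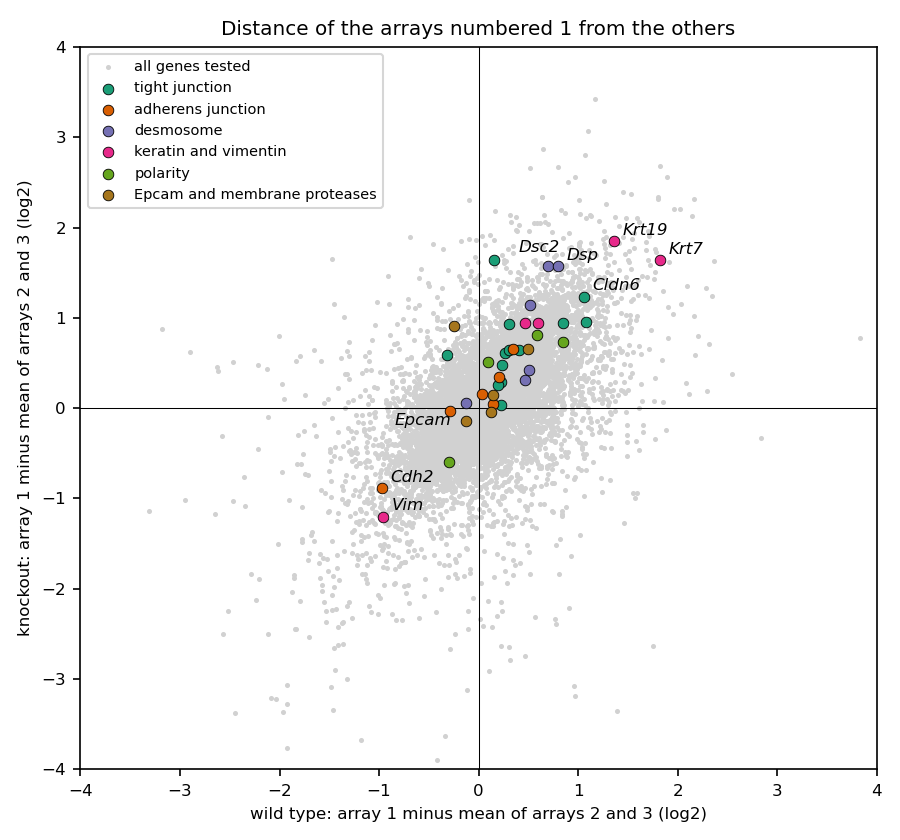
Distance of array 1 from the mean of arrays 2 and 3 (log2) in wild type cells (horizontal axis) and knockout cells (vertical axis), for all genes tested (grey) and the 39 genes by group (colours), with 1 gene outside the axes. Krt19, Krt7, Dsp and Cldn6 lie at the upper right, and Vim and Cdh2 at the lower left.

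The feeder list differed by array number and the endoderm list by genotype. Of 27 markers of feeder fibroblasts 26 were tested. Their mean level was 7.75 on knockout array 1 and 8.70 and 8.59 on the other knockout arrays. It was 7.78 on wild type array 1 and 8.37 and 8.81 on the other wild type arrays. On both arrays numbered 1, 16 of the 26 were below the other 4 arrays (16.9% of all genes). Of 17 markers of trophectoderm, the outer epithelium of the blastocyst, 14 were tested and 3 of these (Krt7, Krt8 and Krt18) are among the 39 genes. They averaged between 7.21 and 7.74 on knockout arrays and between 7.09 and 7.40 on wild type arrays, and Elf5, Gata3 and Tpbpa lay below the filter value. Of the 14, 8 differences were above 0 and 6 below, down to -0.67 (Plac1). With the block 2 were higher (Cdx2 and Krt18, against 4.13% of all genes), and 0 without both arrays numbered 1 (3.76%). The trophectoderm factor gene Cdx2 read 7.04, 7.08 and 6.95 in knockout and 5.70, 6.68 and 5.67 in wild type cells (limma adjusted p = 0.243; 0.0449 with the replicate block; 0.179 without both arrays numbered 1). Of 20 markers of primitive and visceral endoderm, also epithelia, 15 were tested. They averaged between 7.89 and 8.14 on knockout arrays and between 8.77 and 8.96 on wild type arrays, with no overlap. In limma 2 were lower and 0 higher (0.48% and 0.256% of all genes). With the replicate block 9 were lower and 1 higher (5.75% and 4.13%). No marker of these lists was listed at 0 on any array. The part of these cells in the junction and keratin values was not tested.

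Genes of the same structures outside the 39 were counted from lists chosen by function. Of all genes tested, 0.736% passed without the block in either direction and 9.87% with it. An unadjusted p under 0.05 without the block was reached by 13.4% (limma). Of 21 tested genes of tight junctions, 0 passed without the block (5 higher and 1 lower at an unadjusted p under 0.05 in limma), and 2 were higher and 1 lower with it, with a median of 0.22. Ildr2, an angulin of tricellular contacts, read 7.09, 7.25 and 7.12 in knockout and 6.29, 6.20 and 5.70 in wild type cells (limma adjusted p = 0.0190 with the replicate block). Jam2, a junctional adhesion molecule gene, was higher by 0.34, and Vasp, an actin regulator gene, was lower by -0.35 (adjusted p = 0.0248 and 0.0210 in that limma fit). Of the 3, Ildr2 alone passed without both arrays numbered 1 too. The probe set that stood for Ildr2 carries the suffix, described above for Krt8, of probe sets that may also bind related transcripts. Of 24 tested genes of adherens junctions, 0 passed without the block (3 higher and 0 lower at an unadjusted p under 0.05 in limma), and 2 were higher and 0 lower with it, with a median of -0.02. Nectin3, an adhesion protein that recruits afadin, read 10.41, 11.04 and 10.75 in knockout and 9.88, 9.82 and 9.90 in wild type cells (limma adjusted p = 0.0676; 0.00198 with the replicate block). Of 5 desmosome genes, 14 intermediate filament genes and 23 polarity genes, 0 passed without the block. An unadjusted p under 0.05 was reached there by 0, by 1 lower and by 3 higher. With the block 1 desmosome gene was higher (Perp), 1 filament gene lower (the lamin gene Lmna) and 0 polarity genes passed in limma. These genes were named after their values were seen.

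Among 21 tested regulators of the epithelial and mesenchymal states, 3 were higher and 1 lower without a block (0.256% and 0.48% of all genes). Zeb1, a repressor of epithelial genes, read 7.80, 7.52 and 7.69 in knockout and 9.29, 9.59 and 9.45 in wild type cells (limma adjusted p = 0.00255), and Ovol2, Esrp1 and Rab25 were higher by 1.44, 1.26 and 1.52.

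Zeb and Snail proteins are known to bind the E-box CACCTG, which reads CAGGTG on the other strand. Both spellings were searched in the 250 bases before each gene start in the RefSeq promoter table (GRCm38.p6). Of the 39 genes 25 had an entry, and 14 of these (56.0%) held an E-box in at least 1 window, against 19.2% of the 10406 tested genes with an entry. All 6 genes with an entry that were higher with the replicate block (Cldn6, Crb3, Epcam, F11r, Krt18 and Spint2) held one. So did 8 of the 19 others. Among all 423 genes with an entry that were higher with the block, 18.9% held one. The 39 genes were chosen with earlier results of these data known, and the 6 were picked by their values. Both shares are therefore descriptions with no test, and a match is not a bound site. Whether Zeb1 acts on these genes was not tested. The windows of 4 of them are shown because they show how the motif is placed in a claudin gene, a polarity gene, Epcam and a protease inhibitor gene that were higher with the block, each 5′ to 3′ on the strand of its gene with the E-boxes in capitals. They lie at chr17:23679115-23679364 on the plus strand for Cldn6, chr17:57061951-57062200 on the plus strand for Crb3, chr17:87635729-87635978 on the plus strand for Epcam and chr7:29281978-29282227 on the minus strand for Spint2.
Cldn6: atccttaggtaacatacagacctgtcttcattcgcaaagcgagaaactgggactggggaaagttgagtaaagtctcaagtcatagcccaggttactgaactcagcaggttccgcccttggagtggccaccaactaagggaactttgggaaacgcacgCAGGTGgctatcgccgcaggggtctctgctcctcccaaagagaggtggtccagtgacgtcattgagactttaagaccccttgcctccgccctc
Crb3: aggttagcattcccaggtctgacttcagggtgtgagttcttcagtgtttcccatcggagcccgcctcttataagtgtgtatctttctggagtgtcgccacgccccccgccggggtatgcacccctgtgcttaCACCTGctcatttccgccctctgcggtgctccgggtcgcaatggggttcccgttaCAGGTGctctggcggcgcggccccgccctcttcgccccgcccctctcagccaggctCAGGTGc
Epcam: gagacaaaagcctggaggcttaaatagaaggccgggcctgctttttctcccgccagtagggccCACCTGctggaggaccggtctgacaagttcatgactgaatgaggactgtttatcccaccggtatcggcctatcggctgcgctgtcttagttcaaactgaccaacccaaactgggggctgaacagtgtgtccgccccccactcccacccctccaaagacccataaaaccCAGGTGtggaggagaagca
Spint2: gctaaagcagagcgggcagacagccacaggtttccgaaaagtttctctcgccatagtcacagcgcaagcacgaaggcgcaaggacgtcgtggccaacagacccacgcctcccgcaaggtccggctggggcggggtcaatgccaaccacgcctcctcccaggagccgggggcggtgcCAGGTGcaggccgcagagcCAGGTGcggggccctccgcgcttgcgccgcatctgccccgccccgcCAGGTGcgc
Cldn6 held 1 E-box, which starts 93 bases before the gene start. Crb3 held 3, at 118, 63 and 7 bases, and the second start listed for it holds the same 3. Epcam held 2, at 187 and 19 bases, and Spint2 held 3, at 74, 55 and 9 bases.

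**Figure D5:**
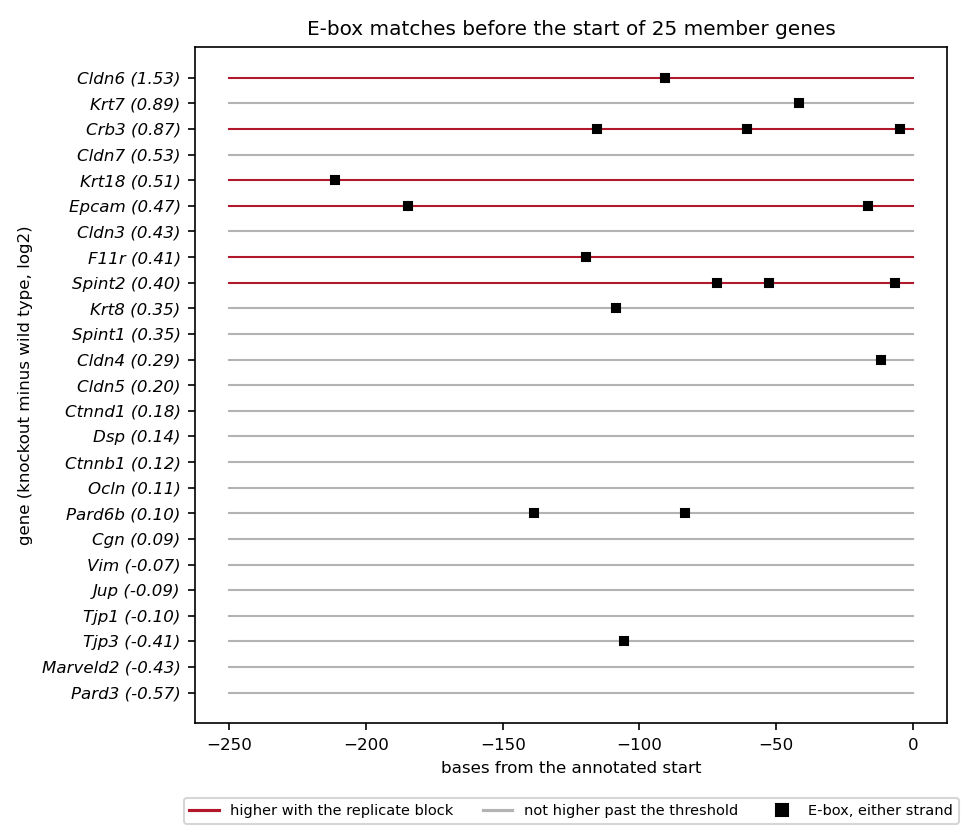
Position of E-boxes (black squares, either strand) in the 250 bases before the first listed start of 25 genes, ordered by the difference between knockout and wild type cells (log2, in brackets), with red lines for genes higher with the replicate block. All 6 red lines carry a square, and 5 of the 19 grey lines do.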

How the data were processed

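Total RNA of 3 Setd2 knockout and 3 wild type cultures was hybridised to arrays, and the groups and replicate numbers were taken from the titles. The authors deposited log2 signals made with MAS5 per the submitters' processing notes, with no version in the sources used here. The log2 scale was read from the values, since the trimmed mean of the linear signals lay between 497.0 and 497.3 on every array. No further normalization was applied. Detection calls were not used here, and for arrays the number of arrays limits the precision.

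Probe sets with a mean below the 40th percentile (5.27) were left out, leaving 27022. limma 3.58.1 in R 4.3.3 (lmFit, eBayes with an intensity trend, two-sided, Benjamini-Hochberg over all tested probe sets) gave differences, and the fit was tested on simulated data. Intervals are from the fit without a block unless the block is named. Genes were named from the platform annotation (34945 probe sets named 1 gene, 932 several, and 9160 were unnamed here), and chromosomes came from RefSeq (GRCm38.p6; 34741 matched).

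All 39 genes were named. Values on every array were given for genes past the threshold with or without the block, for the 2 with the highest signal in each group, and for some others. Only windows of genes past the threshold without the block were to be printed: there were none, so those printed were chosen after the values were seen. The members and lists were chosen with earlier results of these data known.

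Same-numbered knockout and wild type arrays deviated together from their genotype means (r = 0.50, 0.23 and 0.24), all above 0.1, so numbers were treated as pairs. Numbers 2 and 3 were not told apart: knockout 3 correlated with wild type 2 at 0.23. The labels do not say what a number shares. Alternatives were the replicate block, quantile normalization, median centring, no filter, no trend, a floor of 5, each array left out, the mean over a gene's probe sets, no genes of chromosomes 8 and Y and, added after the data were seen, no arrays numbered 1.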

Additional observations from a re-analysis of the deposited data

How the results depend on the processing

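With the replicate block, 2129 probe sets in all, 15 of the members' probe sets and 10 of the 39 genes passed, against 175, 0 and 0 without it. Without both arrays numbered 1 the counts were 2033, 13 and 8, and with no intensity trend 57 probe sets passed in all. Quantile normalization and the floor of 5 each gave 1 gene and 1 member probe set, Epcam. Leaving out single arrays gave 31 to 431 probe sets in all, 0 to 1 of the members' probe sets and 0 to 1 genes (Epcam without knockout replicate 1). The median differences ran from 0.34 to 0.43 for Epcam and membrane proteases, 0.0065 to 0.10 for adherens junctions, 0.33 to 0.81 for keratins and Vim, 0.10 to 0.49 for tight junctions, -0.16 to 0.17 for desmosomes and -0.22 to 0.048 for polarity genes when single arrays were left out. Median centring gave 0.36 for the Epcam group and 0.012 for adherens junctions. None of the 10 genes called with the block changed sign under any alternative run. Differences near 0 did: Ctnna1 (-0.024), Pkp2 (-0.019) and Pkp3 (-0.033) with median centring, Dsg2 (0.0081) and Pkp3 (-0.0013) with quantile normalization, and Ocln (-0.046) as the mean over its probe sets. Without both arrays numbered 1 they were Ctnna1 (-0.026), Dsp (-0.12), Pard6b (-0.037), Pkp2 (-0.036) and Vim (0.013). With single arrays left out, the sign also turned within these ranges: Prss8 (-0.32 to 0.21), Cdh2 (-0.55 to 0.066), Ctnna1 (-0.095 to 0.12), Dsg2 (-0.38 to 0.22), Dsp (-0.39 to 0.58), Jup (-0.20 to 0.070), Pkp2 (-0.025 to 0.11), Pkp3 (-0.21 to 0.18), Vim (-0.39 to 0.33), Pard6b (-0.069 to 0.20), Cgn (-0.23 to 0.37), Cldn4 (-0.027 to 0.65). The cause of these changes was not tested.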

Other observations

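The 11 probe sets of these genes that were too dim to test belong to Cdh3, Ctnna1, Dsc2, Dsg2, Dsp, Pard3, Cxadr and Marveld3. A Ctnna1 probe set read 0.52, 0.05 and 2.54 on the knockout arrays and 3.40, 3.42 and 3.35 on the wild type arrays, with no overlap, while the Ctnna1 probe set with the highest signal differed by 0.02. A Pard3 probe set read 1.83, 4.20 and 4.74 in knockout and 4.46, 5.05 and 5.02 in wild type cells, on the same side as the tested ones. The 3 dim probe sets of Cxadr did not go one way, at mean differences of 1.15, 0.71 and -0.50. All 11 had a mean below the filter value of 5.27, and none was tested.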
